A study of Mus musculus with 12 samples.

Results

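The genes described here build, carry and fix the lipids of the outer skin barrier. They are *Elovl1*, *Elovl4*, *Cers3*, *Cyp4f39*, *Pnpla1*, *Ugcg*, *Abca12*, *Alox12b* and *Aloxe3*, found in the deposited count table by matching its Ensembl identifiers to mouse gene symbols, and they make up 9 of the 52636 genes listed. All 9 passed the filter on low counts and were among the 18822 genes tested. Full-thickness dorsal skin of C57BL/6J mice aged 3 months was sequenced on day 14 in 4 groups of 3 mice. WT mice, labelled wild type, and KO mice, labelled *Cdc42*-/-, were given the vehicle alone, normal saline with hydroxypropyl methylcellulose (HPMC). The groups WT+ZnO NPs and, with *Cdc42* deleted, KO+ZnO NPs were given zinc oxide nanoparticles (ZnO NPs) on the shaved back at 2 mg/cm2 in that vehicle. In KO mice the floxed *Cdc42* gene is removed by Cre recombinase under the keratin K5 promoter, which is active in basal keratinocytes and hair follicles, so dermis, fat, muscle and immune cells of the same piece of skin keep the gene. The study's supplement gives KO mice as homozygous for the floxed allele, and WT mice as lacking Cre while carrying the floxed allele in 1 or both copies. The question the groups address is how ZnO NPs act on skin with an intact and with a defective epidermal barrier, and this set of genes reads out the lipid arm of that barrier.

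As keratinocytes rise through the epidermis they make acylceramides, ceramides whose very long fatty acid carries a linoleic acid on its far end. Fatty acids are lengthened by elongases, hydroxylated at the far end, joined to a sphingoid base and esterified. The acylceramides are then capped with glucose, packed into lamellar granules and secreted. After that, lipoxygenases oxidize the linoleate and allow the lipid to be bound to proteins of the cornified envelope. Loss of a gene of this route is known to cause ichthyosis or a lethal water loss at birth, and several of the route's enzymes are also used by sebaceous glands and hair follicles, which lie in the same piece of skin.

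Before the lipid genes, the libraries were checked against their labels. *Cdc42* lay between 606 and 628 CPM in WT, 415 and 464 in KO, 311 and 350 in the WT+ZnO NPs-labelled libraries and 314 and 453 in the KO+ZnO NPs-labelled ones, so the transcript goes against the label WT+ZnO NPs. Since cells other than keratinocytes keep the gene in KO mice, its level in bulk skin also depends on cell makeup. The part of cell makeup in these levels was not tested. CPM is the usual unit of a gene's counts relative to its library's total, here scaled by the normalization factors that edgeR calls TMM. The sum of 4 Y-linked genes lay at 192 to 242 CPM in all 3 WT+ZnO NPs-labelled libraries and in replicate 1 of KO and of KO+ZnO NPs, while *Xist* was at 460 to 1033 CPM in the other 7 libraries, and the methods describe the KO mice as female. The Y-linked transcripts and the treatment therefore cannot be told apart between WT and the WT+ZnO NPs-labelled libraries. Total counts ran from 21076320 to 28867802 per library, and the 9 genes held between 76 and 72297 counts in a library.

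Compared per kilobase of exon in WT skin, *Elovl4* was the most abundant of the 9 transcripts, at 212 ± 92.0 CPM per kb (SD, n = 3), followed by *Elovl1* at 74.1 ± 9.44 CPM per kb. *Ugcg* at 18.9 ± 2.43, *Alox12b* at 16.7 ± 5.68 and *Cers3* at 13.6 ± 2.18 CPM per kb came next, and neighbours in that order overlapped between libraries. *Cyp4f39* at 8.87 ± 0.448 and *Abca12* at 8.25 ± 1.27 CPM per kb overlapped as well. *Aloxe3* at 4.88 ± 2.13 and *Pnpla1* at 4.40 ± 0.976 CPM per kb were the lowest and were not separated. All other levels below are CPM without division by length and compare libraries, not genes.

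In the KO skin given the vehicle, no gene of the set passed the test against WT, where 8.18% of all genes tested did. In the WT+ZnO NPs-labelled libraries, 5 of the 9 genes were lower than in WT and none was called higher, beside 22.1% of all genes called lower and 20.8% higher, with *Alox12b*, *Abca12* and *Elovl1* falling furthest. In KO skin given ZnO NPs, *Elovl1* and *Ugcg* were lower and *Elovl4* was higher than in KO skin given the vehicle, where 8.09% of all genes were called lower and 6.57% higher. The call of *Elovl4* was lost with the replicate number as a block, and all 3 were lost in edgeR fits of only the KO and KO+ZnO NPs libraries, with or without that block. Calls were made where the adjusted p lay under 0.05. Every adjusted p comes from the quasi-likelihood test of edgeR, corrected over all genes tested by the method of Benjamini and Hochberg. In bulk skin, fewer cells of a type and less RNA per cell cannot be told apart.

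**Figure D1:**
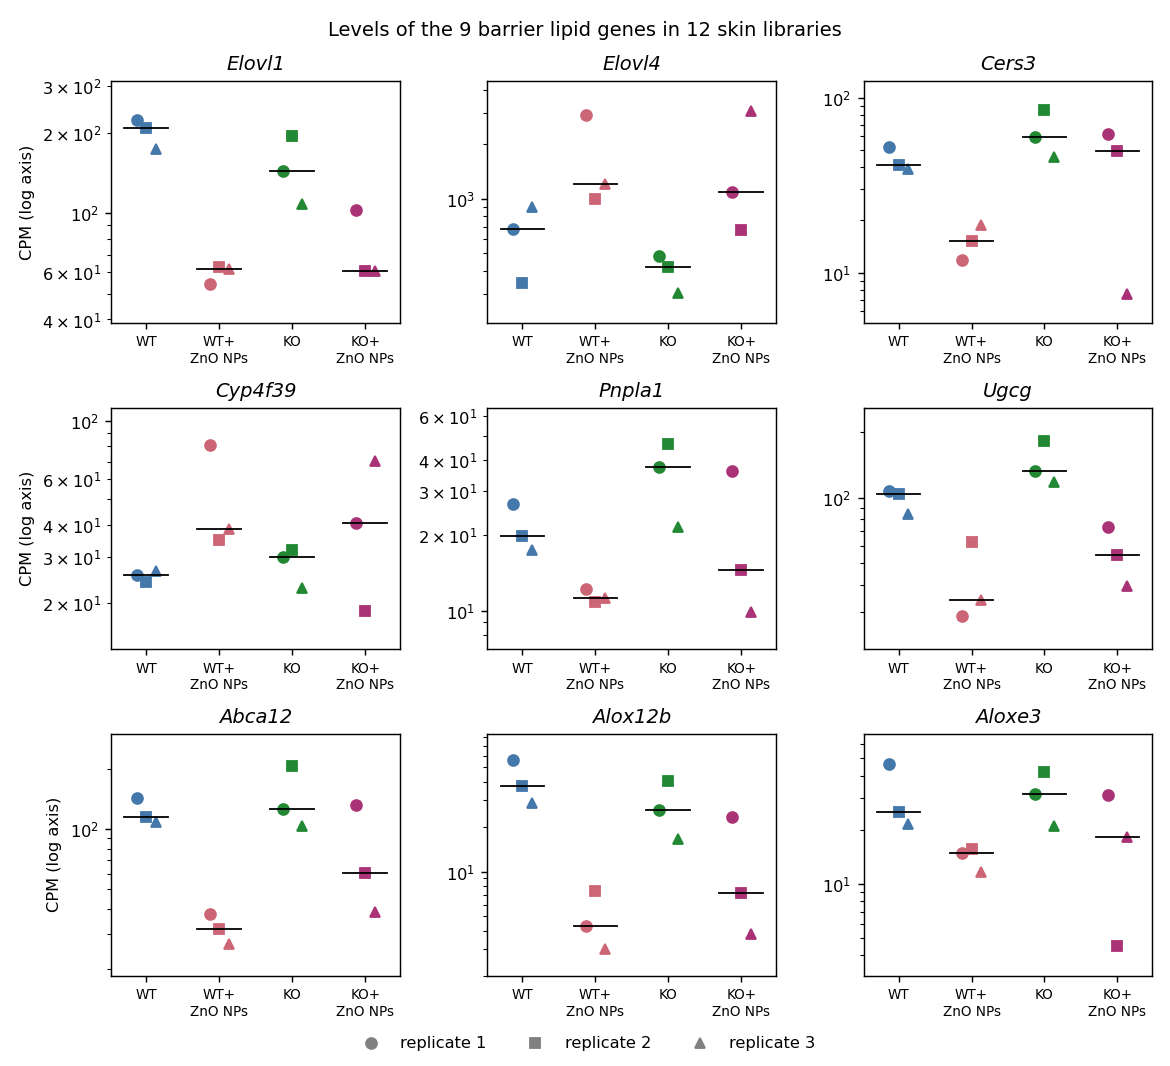
Level of each of the 9 genes in CPM (log axis) in the 12 libraries, by group, with 1 symbol shape per replicate number and the group's median as a line. *Elovl1*, *Cers3*, *Pnpla1*, *Ugcg*, *Abca12*, *Alox12b* and *Aloxe3* lie lower in all 3 WT+ZnO NPs-labelled libraries than in all 3 WT libraries, while *Elovl4* and *Cyp4f39* lie higher, and KO+ZnO NPs replicate 1 lies close to the KO libraries for most of the falling genes.

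In both ZnO NP groups against their vehicle groups, the values of the fatty acid elongases *Elovl1* and *Elovl4* went in opposite directions. *Elovl4* passed only in KO+ZnO NPs against KO. Between KO and WT both values were negative and neither passed. *Elovl1* (ENSMUSG00000006390, chr4:118428093-118432953 of GRCm38, plus strand) encodes the elongase that makes saturated fatty acids of the length found in most skin ceramides. Its level was 224, 208 and 174 CPM in WT replicates 1 to 3, 54.2, 62.8 and 61.7 CPM in the WT+ZnO NPs-labelled libraries, 144, 194 and 108 CPM in KO, and 103, 60.7 and 60.9 CPM in KO+ZnO NPs. The WT+ZnO NPs-labelled libraries lay wholly below WT, and KO+ZnO NPs lay wholly below KO. Against WT, *Elovl1* fell by 1.76 on the log2 scale in the WT+ZnO NPs-labelled libraries (standard error, SE, 0.25, adjusted p = 0.000384), a 3.39-fold lower level. Against KO it fell by 0.99 in KO+ZnO NPs (SE 0.25, adjusted p = 0.0261). Between KO and WT the log2 fold change was -0.44 (SE 0.24, adjusted p = 0.286), with overlapping libraries. The second of these calls was lost when KO replicate 2, KO+ZnO NPs replicate 2 or KO+ZnO NPs replicate 3 was left out, with an adjusted p of up to 0.109, while the call against WT held in all 12 fits that left out a library. With the replicate number as a block the call in KO+ZnO NPs held on all 12 libraries (adjusted p = 0.0277) and was lost on only the KO and KO+ZnO NPs libraries, without the block (adjusted p = 0.101) and with it (adjusted p = 0.144), the latter a fit that called 0 of 17613 genes. Under keratin scaling the value was -0.75 (adjusted p = 0.253).

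*Elovl4* (ENSMUSG00000032262, chr9:83778692-83806277, minus strand) encodes the elongase for the ultra-long fatty acids of acylceramides and is also strongly expressed in sebaceous glands. It stood at 686, 345 and 897 CPM in WT, 2892, 1002 and 1209 CPM in the WT+ZnO NPs-labelled libraries, 483, 418 and 302 CPM in KO and 1087, 669.7 and 3069 CPM in KO+ZnO NPs. The WT+ZnO NPs-labelled libraries lay above WT and KO+ZnO NPs above KO, both without overlap, and 1 library of each ZnO NP group stood far above its partners. *Elovl4* rose in KO+ZnO NPs by a log2 fold change of 2.0 against KO (SE 0.60, adjusted p = 0.0483), which is 4.01-fold. With the replicate number as a block this was 1.77 (adjusted p = 0.0623), or 1.68 (adjusted p = 0.195) on only the KO and KO+ZnO NPs libraries, and without KO+ZnO NPs replicate 3 it was 1.15 (adjusted p = 0.150), so the call rests on that library and on the choice of fit, and it held in 9 of 24 alternatives. It was lost when any WT or KO library, or WT+ZnO NPs replicate 2 or 3, was left out as well. Against WT, the WT+ZnO NPs-labelled libraries gave a log2 fold change of 1.40 (SE 0.59, adjusted p = 0.0764), which did not pass.

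Since these elongases differed in direction in the same libraries, the stretches before their transcription starts are shown, as RefSeq gives them on GRCm38.p6. The stretch of *Elovl1* is chr4:118427843-118428092 on the plus strand and that of *Elovl4* chr9:83806306-83806555 on the minus strand, each of 250 bases ending at the base before the start. Capitals mark matches to the motifs searched.
Elovl1: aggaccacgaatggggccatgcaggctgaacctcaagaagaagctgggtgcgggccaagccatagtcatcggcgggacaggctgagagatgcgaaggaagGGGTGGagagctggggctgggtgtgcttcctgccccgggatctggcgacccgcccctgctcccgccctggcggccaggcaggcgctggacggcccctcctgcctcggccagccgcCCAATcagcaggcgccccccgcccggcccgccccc
Elovl4: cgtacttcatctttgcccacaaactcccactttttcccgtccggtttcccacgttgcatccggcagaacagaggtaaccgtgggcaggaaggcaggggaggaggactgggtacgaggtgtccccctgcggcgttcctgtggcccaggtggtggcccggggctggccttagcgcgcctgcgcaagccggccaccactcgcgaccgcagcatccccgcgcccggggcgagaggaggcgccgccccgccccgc
Both stretches are rich in G and C, at 72.0% for *Elovl1* and 69.6% for *Elovl4*, and they hold 18 and 25 CG dinucleotides. Short motifs were searched on both strands, and their share is given among the 32851 promoters of the same length in RefSeq's table. These were TGAGTCA, bound by AP-1 factors (4.46% of promoters), the grainyhead-like motif AACCNGTT with N for any base (1.79%), the TATA box as TATAAA (12.4%), the CCAAT box (33.8%) and the KLF motif CCACCC (28.1%). None of the matches marked overlap. *Elovl1* held 1 CCAAT and 1 CCACCC, the latter on the other strand, and *Elovl4* held none of the 5. The table had an entry for 8 of the 9 genes and a stretch before the start for 7 of them, among which *Pnpla1* also held CCAAT once and CCACCC at 2 places.

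The level of *Elovl4* relative to *Elovl1* in the same library, per kilobase, was chosen after the values were seen and is given as a description. It was 2.76, 1.5 and 4.66 in WT, 48.0, 14.4 and 17.6 in the WT+ZnO NPs-labelled libraries, 3.02, 1.94 and 2.51 in KO and 9.49, 9.94 and 45.4 in KO+ZnO NPs. The highest vehicle library was thus at 4.66 and the lowest ZnO NP library at 9.49. This ratio does not depend on the scaling of the libraries.

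*Cers3* (ENSMUSG00000030510, chr7:66743504-66823691, plus strand) encodes the ceramide synthase that joins ultra-long fatty acids to a sphingoid base. Its level was 52.2, 41.2 and 39.0 CPM in WT, 11.9, 15.1 and 18.7 CPM in the WT+ZnO NPs-labelled libraries, 59.8, 84.8 and 46.1 CPM in KO and 62.3, 49.4 and 7.58 CPM in KO+ZnO NPs. The WT+ZnO NPs-labelled libraries were low together, whereas KO+ZnO NPs held replicates 1 and 2 within the range of KO and replicate 3 far beneath it. *Cers3* fell by 1.53 on the log2 scale in the WT+ZnO NPs-labelled libraries against WT (SE 0.56, adjusted p = 0.0479), close to the threshold. The call was kept without KO+ZnO NPs replicate 1 or 3 and lost without any other library, with an adjusted p of up to 0.129. Against KO, the log2 fold change in KO+ZnO NPs was -0.68 (SE 0.55, adjusted p = 0.421).

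*Cyp4f39* and *Pnpla1*, whose enzymes act at the far end of the ultra-long fatty acid, did not pass the test in any comparison. *Cyp4f39* (ENSMUSG00000061126, chr17:32452723-32493320, plus strand) encodes the mouse counterpart of human CYP4F22, which hydroxylates the far end of the ultra-long fatty acid. It was at 25.5, 24.0 and 26.5 CPM in WT, 80.8, 34.8 and 38.3 CPM in the WT+ZnO NPs-labelled libraries, 29.9, 31.8 and 22.8 CPM in KO and 40.7, 18.5 and 70.2 CPM in KO+ZnO NPs. Like *Elovl4*, it was highest in WT+ZnO NPs replicate 1 and KO+ZnO NPs replicate 3. The WT+ZnO NPs-labelled libraries lay above WT without overlap, with a log2 fold change of 1.02 (SE 0.43, adjusted p = 0.0770). For KO+ZnO NPs against KO it was 0.61 (SE 0.43, adjusted p = 0.345), with KO+ZnO NPs replicate 2 below all KO libraries.

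*Pnpla1* (ENSMUSG00000043286, chr17:28858411-28890309, plus strand) encodes the transacylase that adds the linoleate. Its level was 26.6, 19.8 and 17.5 CPM in WT, 12.2, 10.8 and 11.3 CPM in the WT+ZnO NPs-labelled libraries, 37.3, 46.1 and 21.6 CPM in KO and 36.2, 14.5 and 9.84 CPM in KO+ZnO NPs. The WT+ZnO NPs-labelled libraries were close to each other and beneath every WT library, at a log2 fold change of -0.90 (SE 0.43, adjusted p = 0.110), and KO+ZnO NPs against KO gave -0.80 (SE 0.42, adjusted p = 0.217). *Pnpla1* overlaps the antisense gene *Pnpla1os* and has 13.4% of its 50-base stretches in common with other genes, so its counts are uncertain where strand was not used. *Elovl1* overlaps *Cdc20* on the other strand, with 0.139% of its stretches shared.

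Of the genes for capping and transport, *Ugcg* was lower in the WT+ZnO NPs-labelled libraries than in WT and in KO+ZnO NPs than in KO. *Ugcg* (ENSMUSG00000028381, chr4:59189257-59222833, plus strand) encodes the glucosylceramide synthase, which turns ceramides into the form that is packed into lamellar granules. It was at 107, 104 and 83.9 CPM in WT, 28.8, 62.4 and 34.0 CPM in the WT+ZnO NPs-labelled libraries, 132, 181 and 118 CPM in KO and 73.2, 54.4 and 39.5 CPM in KO+ZnO NPs. The KO libraries were all above the WT libraries, the WT+ZnO NPs-labelled libraries were all below WT, and KO+ZnO NPs all below KO. *Ugcg* fell by 1.24 in the WT+ZnO NPs-labelled libraries (SE 0.31, adjusted p = 0.00854) and by 1.37 in KO+ZnO NPs (SE 0.31, adjusted p = 0.0190). These are 2.36-fold and 2.58-fold lower levels. The difference between KO and WT was 0.55 (SE 0.30, adjusted p = 0.283) and did not pass. As for *Elovl1*, the call in KO+ZnO NPs was lost when KO replicate 2, KO+ZnO NPs replicate 2 or KO+ZnO NPs replicate 3 was left out, with an adjusted p of up to 0.0816. The block kept it on all 12 libraries (adjusted p = 0.0153) and it was lost on only the KO and KO+ZnO NPs libraries, without the block (adjusted p = 0.0509) and with it (adjusted p = 0.10), and under keratin scaling, at -1.17 (adjusted p = 0.116).

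*Abca12* (ENSMUSG00000050296, chr1:71242276-71414910, minus strand) encodes the transporter that loads glucosylceramides into lamellar granules and is the gene of harlequin ichthyosis. Its level was 144, 115 and 108 CPM in WT, 37.7, 31.7 and 26.7 CPM in the WT+ZnO NPs-labelled libraries, 126, 208 and 104 CPM in KO and 133, 60.5 and 38.8 CPM in KO+ZnO NPs. Every WT+ZnO NPs-labelled library was below every other library of the 12. *Abca12* fell by 1.93 in them against WT (SE 0.41, adjusted p = 0.00371), 3.81-fold, and this call held in all 12 fits that left out a library. In KO+ZnO NPs the log2 fold change against KO was -0.91 (SE 0.40, adjusted p = 0.137), and without KO+ZnO NPs replicate 1, which lay within the KO range, it was -1.56 (adjusted p = 0.0152).

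The lipoxygenases act last. *Alox12b* (ENSMUSG00000032807, chr11:69156989-69169792, plus strand) encodes the 12R-lipoxygenase that oxidizes the linoleate of acylceramides. It was at 55.6, 37.2 and 28.6 CPM in WT, 4.32, 7.45 and 3.01 CPM in the WT+ZnO NPs-labelled libraries, 26.0, 40.5 and 16.6 CPM in KO and 23.1, 7.21 and 3.79 CPM in KO+ZnO NPs. The 3 WT+ZnO NPs-labelled libraries and replicates 2 and 3 of KO+ZnO NPs were low, and replicate 1 of KO+ZnO NPs was not. *Alox12b* fell by 3.04 in the WT+ZnO NPs-labelled libraries against WT (SE 0.64, adjusted p = 0.00373), an 8.23-fold lower level and the largest fall among the 9 genes. In KO+ZnO NPs the log2 fold change was -1.29 (SE 0.60, adjusted p = 0.166), and it was -2.34 (adjusted p = 0.0202) without KO+ZnO NPs replicate 1. The stretch before its start, chr11:69156822-69156988 on the plus strand, is shown because the gene changed most. It is the 167 bases of RefSeq's entry that lie before the annotated gene, and it held none of the 5 motifs.
Alox12b: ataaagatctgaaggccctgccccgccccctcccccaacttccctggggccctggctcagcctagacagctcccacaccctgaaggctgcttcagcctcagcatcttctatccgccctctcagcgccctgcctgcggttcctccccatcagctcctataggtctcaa

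*Aloxe3* (ENSMUSG00000020892, chr11:69125896-69149115, plus strand), which encodes the epidermal lipoxygenase 3 that converts the product of *Alox12b*, is its neighbour on chromosome 11. Its level was 46.8, 25.1 and 21.7 CPM in WT, 14.8, 15.6 and 11.7 CPM in the WT+ZnO NPs-labelled libraries, 31.8, 42.2 and 21 CPM in KO and 31.4, 4.48 and 18.2 CPM in KO+ZnO NPs. The WT+ZnO NPs-labelled libraries were below all WT libraries, but the log2 fold change of -1.16 did not pass (SE 0.55, adjusted p = 0.114). KO+ZnO NPs against KO gave -0.81 (SE 0.55, adjusted p = 0.331), with the lowest level in replicate 2, not in replicate 3 as for *Alox12b*.

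**Figure D2:**
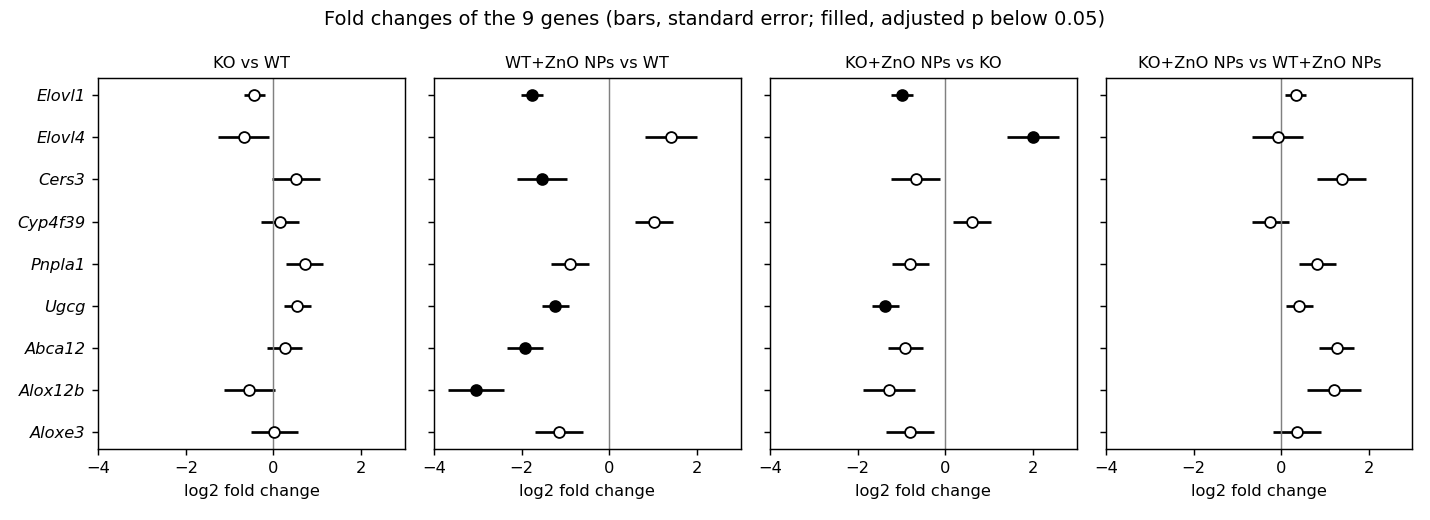
Log2 fold change of each gene in 4 comparisons, with bars of 1 standard error and filled points where the adjusted p is below 0.05. Between the WT+ZnO NPs-labelled libraries and WT, 5 points are filled, all on the negative side. Between KO+ZnO NPs and KO, *Elovl4* is filled on the positive side and *Elovl1* and *Ugcg* on the negative side, and the outer panels hold no filled point.

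Over the set, 5 of 9 genes were called lower and 0 higher in the WT+ZnO NPs-labelled libraries against WT, where 43% of all genes tested were called, 22.1% lower and 20.8% higher. The groups did not overlap for 7 genes that were lower and 2 that were higher, beside 29.3% and 30.1% of all genes. The median log2 fold change of the set was -1.24, and that of all genes 0.06. A fit of only the WT and WT+ZnO NPs libraries called all 9 and 49% of all genes, while in the fit of all 12 libraries *Aloxe3*, *Pnpla1*, *Elovl4* and *Cyp4f39* passed when KO+ZnO NPs libraries were left out, with an adjusted p of 0.0266 for *Aloxe3* without replicate 2, 0.0252 for *Pnpla1* without replicate 1, and 0.0276 and 0.0217 as the lowest for *Elovl4* and *Cyp4f39* without replicate 3 and replicate 2. With a covariate for Y-linked transcripts, which lowered the share of all genes called to 21.2%, *Abca12*, *Alox12b*, *Elovl1* and *Ugcg* were still called, *Cers3* gave -2.06 (adjusted p = 0.0902) and *Pnpla1* passed at -1.79 (adjusted p = 0.0316). Within this comparison the covariate and the treatment coincide, so its slope rests mainly on replicate 1 of KO and of KO+ZnO NPs against their partners. Calls kept or lost with it therefore do not separate the Y-linked transcripts from the treatment. Under keratin scaling *Ugcg* (adjusted p = 0.0736) and *Cers3* (0.0761) lost their calls and *Elovl4* passed at 1.55 (adjusted p = 0.0497), beside 22.9% of all genes.

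In KO+ZnO NPs against KO, 1 of 9 genes was called higher and 2 lower, where 14.7% of all genes were called, 6.57% higher and 8.09% lower. With the replicate number as a block on all 12 libraries 0 were called higher and 2 lower, beside 13.8% of all genes. On only the KO and KO+ZnO NPs libraries edgeR called 0 of 9, beside 3.24% of all genes, and 0 of 9 with the block, beside 0% of all genes, whereas DESeq2 called 3, beside 16.8%. *Elovl4* was the gene whose groups lay apart on the higher side and *Elovl1* and *Ugcg* those on the lower side, beside 17% and 17.7% of all genes. The median of the set was -0.81 and that of all genes 0.01. Leaving out KO+ZnO NPs replicate 1 raised the number of genes called from 3 to 6, the added ones being *Abca12*, *Alox12b* and *Pnpla1*, the latter at -1.52 (adjusted p = 0.0170), where 16.4% of all genes were called. It was 0 without KO replicate 2 (2.34% of all genes) or without KO+ZnO NPs replicate 3 (10.4%), 1 without KO+ZnO NPs replicate 2 (7.62%), and 2 without any WT library, without WT+ZnO NPs replicate 2 or 3, and without KO replicate 1 or 3 (5.44% to 13.7%). Among the libraries without Y-linked transcripts, 2 of each group, 4 of the 9 were called, beside 12.8% of all genes.

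KO against WT gave 0 of 9 calls, where 8.18% of all genes were called, 4.61% higher and 3.58% lower. DESeq2 called 1 gene when fitted on only these libraries, where it called 25.6% of all genes. *Ugcg* alone lay apart between the groups, on the higher side, beside 18.6% of all genes. The median of the set was 0.15 and that of all genes 0.01. The log2 fold changes lay between -0.68 for *Elovl4* and 0.72 for *Pnpla1*, whose SE was 0.42. Scaling by 4 keratins (*Krt1*, *Krt10*, *Krt5* and *Krt14*) in place of TMM moved the median of all genes by -0.90, and the 6 positive values, all smaller than that shift, became negative with it. The sum of these keratins was 6538 to 9224 CPM in WT and 12024 to 21624 CPM in KO, so this scale itself differed between the groups. All 4 are also among the keratinocyte markers used below.

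Between the ZnO NP-treated groups, 0 of 9 genes were called and 3.28% of all genes were, with 1 called by DESeq2 on all 12 libraries, beside 13% of all genes. *Abca12* lay apart, higher in the KO+ZnO NPs-labelled libraries, beside 13% of all genes, with a log2 fold change of 1.27 (SE 0.40, adjusted p = 0.0908). *Cers3* gave 1.38 (SE 0.56, adjusted p = 0.162). Without KO+ZnO NPs replicate 3 both passed, *Abca12* at 1.58 (adjusted p = 0.0283) and *Cers3* at 1.86 (adjusted p = 0.0113). The interaction compares the difference between ZnO NPs and vehicle in the libraries labelled KO with that in the libraries labelled WT. DESeq2 on all 12 libraries called 0 of 9 genes for it, beside 17.1% of all genes. In the edgeR fit the interaction called 0 of 9 genes, where 8.68% of all genes were called, 5.08% with a positive and 3.59% with a negative value. Its largest value was 1.76 for *Alox12b* (SE 0.85, adjusted p = 0.210), with a 95% interval of -0.12 to 3.63 on the test's degrees of freedom, *Elovl1*, the only one at an unadjusted p below 0.05, gave 0.77 (SE 0.34, adjusted p = 0.178), and *Abca12* gave 1.02 (SE 0.56, adjusted p = 0.266). The comparisons share libraries, so their values are not independent.

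The wider pathway was described with 92 genes in lists by step, to which the 9 genes belong. Of these, 51 were called in the WT+ZnO NPs-labelled libraries against WT, beside 43% of all genes, and 21 in KO+ZnO NPs against KO, beside 14.7%. The counts by list stand beside 20.8% of all genes called higher and 22.1% lower in the WT+ZnO NPs-labelled libraries, and 6.57% and 8.09% in KO+ZnO NPs. For fatty acid synthesis and elongation, 6 of 17 genes were called higher and 1 lower in each of these comparisons, *Elovl1* being the one that fell in both. *Elovl3*, an elongase of sebaceous glands and follicles, rose in KO+ZnO NPs by 2.76 (SE 0.62, adjusted p = 0.0194). This call was lost without KO replicate 2 (adjusted p = 0.0731) or KO replicate 3 (0.0692), and on only the KO and KO+ZnO NPs libraries without the replicate block (0.0541) and with it (0.10). *Elovl3* was at 53.8, 15.5 and 26.9 CPM in KO and 161, 132 and 359 CPM in KO+ZnO NPs. Within this list *Elovl4* lay with the genes that rose in KO+ZnO NPs, and *Elovl1* was the only one called lower there.

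De novo ceramide synthesis held 9 of 18 genes called lower and 2 called higher in the WT+ZnO NPs-labelled libraries (22.1% and 20.8% of all genes), and 1 lower and 2 higher in KO+ZnO NPs. *Degs2*, whose enzyme makes phytoceramides, was at 11.6, 6.28 and 11.6 CPM in WT and 1.16, 1.14 and 0.633 CPM in the WT+ZnO NPs-labelled libraries, and fell by 3.33 (SE 0.86, adjusted p = 0.0105). The genes that rose were *Fa2h*, a fatty acid 2-hydroxylase, and *Cers4*, a ceramide synthase known from sebaceous glands. Both passed without the covariate for Y-linked transcripts, whereas with it the calls in the WT+ZnO NPs-labelled libraries were lost (adjusted p = 0.114 for *Fa2h* and 0.0725 for *Cers4*). That covariate does not separate the transcripts from the treatment there. *Fa2h* rose by 2.60 in the WT+ZnO NPs-labelled libraries (SE 0.70, adjusted p = 0.0131) and by 3.40 in KO+ZnO NPs (SE 0.73, adjusted p = 0.0164). *Cers4* rose by 2.38 (SE 0.55, adjusted p = 0.00614) and by 2.76 (SE 0.56, adjusted p = 0.0139). The calls of both genes in KO+ZnO NPs were lost without KO replicate 2 (adjusted p = 0.0714 for *Fa2h* and 0.0647 for *Cers4*), without KO replicate 3 (0.0620 and 0.0537) and on only the KO and KO+ZnO NPs libraries, without the replicate block (0.0561 and 0.0537) and with it (0.107 and 0.103). Of the 6 ceramide synthases, *Cers2*, *Cers3* and *Cers5* were called lower and *Cers4* higher in the WT+ZnO NPs-labelled libraries, the call of *Cers3* holding in 8 of 22 alternatives. *Cers2*, the broadly expressed ceramide synthase for very long fatty acids, also fell by 0.63 in KO against WT (SE 0.13, adjusted p = 0.0170). This call was lost without WT replicate 2 (adjusted p = 0.0819), without KO replicate 1 (0.0641) and among the libraries without Y-linked transcripts (0.102).

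Of the 7 genes for glucosylation, transport and release, 6 fell in the WT+ZnO NPs-labelled libraries (22.1% of all genes), with *Smpd1* as the exception, and 3 fell in KO+ZnO NPs (8.09%), *Ugcg* among them. *Psap*, which encodes the precursor of the saposins that help to break down glucosylceramide outside the cell, fell by 1.01 in KO+ZnO NPs (SE 0.23, adjusted p = 0.0197), a call lost without KO replicate 2 (adjusted p = 0.0847) or KO replicate 3 (0.0620), under keratin scaling (0.266) and on only the KO and KO+ZnO NPs libraries, without the replicate block (0.0835) and with it (0.138). It was at 1373, 2442 and 2182 CPM in KO and 929, 1049 and 994 CPM in KO+ZnO NPs. In the lipoxygenase list 2 of 6 genes fell in the WT+ZnO NPs-labelled libraries and 0 in KO+ZnO NPs. The one beside *Alox12b* was *Sdr9c7*, the dehydrogenase that acts after *Aloxe3*, which fell by 3.53 (SE 0.77, adjusted p = 0.00452) from 72.0, 49.0 and 45.8 CPM to 3.60, 5.62 and 5.26 CPM. It had 56.7, 10.6 and 4.97 CPM in KO+ZnO NPs, the order of *Alox12b*.

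Of the 4 genes for acylceramide assembly, 1 was called higher and 1 lower in the WT+ZnO NPs-labelled libraries (20.8% and 22.1% of all genes) and 0 in KO+ZnO NPs. These were *Slc27a4*, a fatty acid transporter and acyl-CoA synthetase, and *Abhd5*, the co-activator of *Pnpla1*, both named after their values were seen. Of the 5 ceramidases, which break ceramides down, 3 fell in the WT+ZnO NPs-labelled libraries, and in KO+ZnO NPs 1 fell and 1 rose. *Asah1*, the acid ceramidase, fell by 1.02 in KO+ZnO NPs (SE 0.21, adjusted p = 0.0149), a call lost without KO replicate 2 (adjusted p = 0.0682), under keratin scaling (0.179) and on only the KO and KO+ZnO NPs libraries, without the replicate block (0.0665) and with it (0.117). Cholesterol synthesis, the other lipid branch of the barrier, had 13 of 20 genes called higher and 0 lower in the WT+ZnO NPs-labelled libraries, with a median log2 fold change of 1.22, and 5 higher and 1 lower in KO+ZnO NPs, with a median of 0.50. Of 15 transcription factors of differentiation and lipid synthesis, 5 rose and 2 fell in the WT+ZnO NPs-labelled libraries and 0 were called in KO+ZnO NPs. *Tfap2a*, which encodes the factor AP-2 alpha of keratinocytes, had 19.9, 15.5 and 21.7 CPM in WT and 111, 103 and 121 CPM in the WT+ZnO NPs-labelled libraries and rose by 2.55 (SE 0.19, adjusted p = 1.73e-05).

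Between KO and WT, 7 of the 92 genes were called, beside 8.18% of all genes, and 5 of these 7 were transcription factors. *Tfap2a* rose by 1.35 (SE 0.18, adjusted p = 0.00234), *Vdr*, the vitamin D receptor, by 1.70 (SE 0.35, adjusted p = 0.0166), and *Scd2*, a fatty acid desaturase, by 1.09 (SE 0.22, adjusted p = 0.0147). *Nr1h3*, the liver X receptor alpha, fell by 1.29 (SE 0.32, adjusted p = 0.0341) from between 54.2 and 61.3 CPM to between 20.4 and 24.9 CPM. Its call was lost when any WT or KO library, or WT+ZnO NPs replicate 3, was left out, with an adjusted p of up to 0.122. That of *Vdr* was lost without WT replicate 2 and that of *Scd2* without WT replicate 1 or 2, with an adjusted p of up to 0.0781, and those of *Vdr* and *Nr1h3* also among the libraries without Y-linked transcripts (adjusted p = 0.0930 and 0.123). Under the scaling to keratins, with its shift of -0.90 for all genes, the rises did not pass, at 0.46 for *Tfap2a* (adjusted p = 0.231), 0.93 for *Vdr* (adjusted p = 0.0841) and 0.20 for *Scd2* (adjusted p = 0.658). Between the ZnO NP-treated groups, 5 of the 92 were called, beside 3.28% of all genes. In the KO+ZnO NPs-labelled libraries, *Acer2*, an alkaline ceramidase, was higher by 1.47 (SE 0.29, adjusted p = 0.0352), *Sgms1*, a sphingomyelin synthase, by 0.99 (SE 0.23, adjusted p = 0.0462) and *Sptssa*, a small subunit of serine palmitoyltransferase, by 0.83 (SE 0.17, adjusted p = 0.0362). *Scd2* was lower there, by a log2 fold change of -0.92 (SE 0.21, adjusted p = 0.0485). These 4 calls held in only 11, 6, 10 and 7 of 22 alternatives for *Acer2*, *Sgms1*, *Sptssa* and *Scd2*, and each was lost without any single WT library. Under the keratin scaling, which moved the median of all genes by -0.93 here, *Sptssa* stood at -0.057 (adjusted p = 0.878). With it *Sgms1* stood at 0.0021 (adjusted p = 0.996) and *Acer2* at 0.50 (adjusted p = 0.292), while *Scd2* kept its call.

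**Figure D3:**
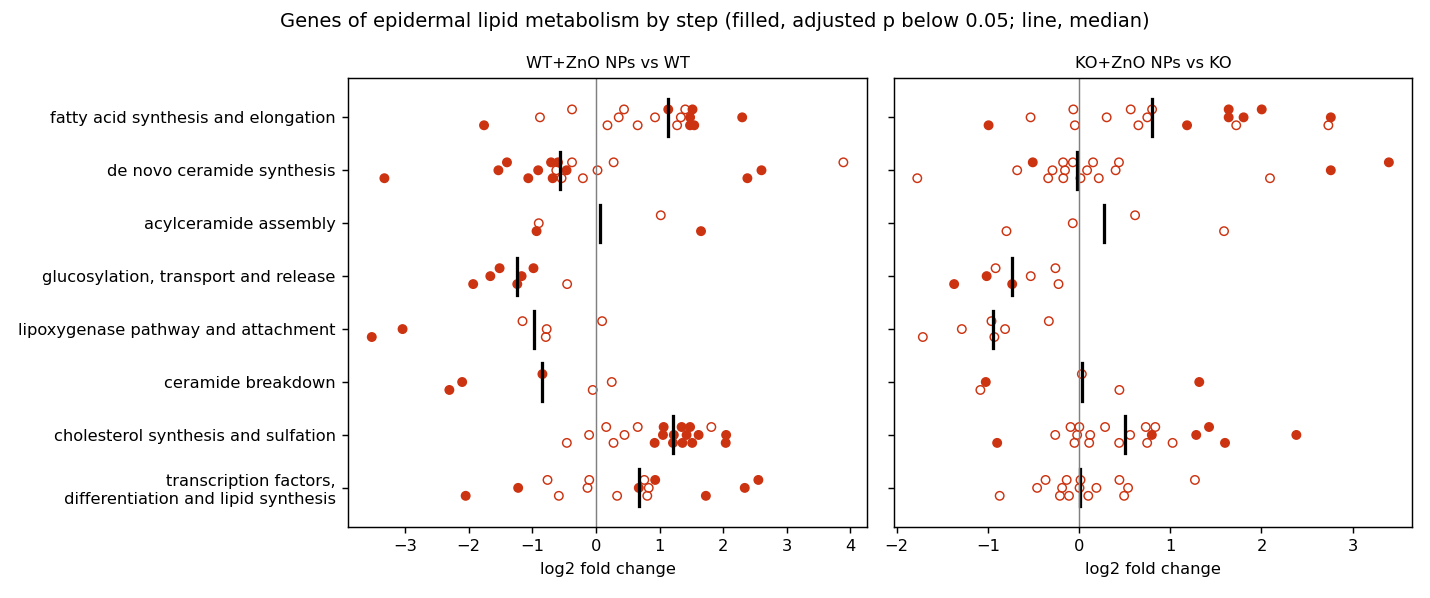
Log2 fold change of the 92 pathway genes by step in the WT+ZnO NPs-labelled libraries against WT (left) and in KO+ZnO NPs against KO (right), 1 point per gene, filled where the adjusted p is below 0.05, with the median of each list as a line. On the left, glucosylation, transport and release has its median at -1.24 and cholesterol synthesis and sulfation at 1.22.

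Markers of the cells in the skin moved with these genes. The summed level of 8 markers of differentiated keratinocytes (*Krt1*, *Krt10*, *Krtdap*, *Lor*, *Flg*, *Ivl*, *Dsg1a*, *Dsc1*) was 5659 to 9435 CPM in WT, 1366 to 1824 CPM in the WT+ZnO NPs-labelled libraries, 9717 to 19049 CPM in KO and 2360 to 11374 CPM in KO+ZnO NPs. Against WT, 6 of these 8 fell in the WT+ZnO NPs-labelled libraries, with a median log2 fold change of -2.21, and 0 were called in KO+ZnO NPs against KO, with a median of -1.15. None of the 8 was at 0 in a group. Within KO+ZnO NPs the sum was 11374, 6242 and 2360 CPM in replicates 1, 2 and 3, and *Abca12*, *Alox12b*, *Cers3*, *Pnpla1* and *Ugcg* were in the same order. Of these 5 genes only *Ugcg* was called against KO, and *Cers3* in replicate 2 lay within the KO range while the marker sum did not. The markers' part in these results was not tested.

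The 7 sebaceous gland markers (*Mc5r*, *Awat1*, *Awat2*, *Far2*, *Soat1*, *Dgat2l6*, *Cidea*) summed to 279 to 566 CPM in WT, 728 to 1760 CPM in the WT+ZnO NPs-labelled libraries, 162 to 227 CPM in KO and 360.3 to 1731 CPM in KO+ZnO NPs. In KO+ZnO NPs against KO 4 of the 7 rose, and in the WT+ZnO NPs-labelled libraries against WT 1 did, *Far2*, while *Awat2* (log2 fold change -1.08) and *Dgat2l6* (-1.02) had negative values that did not pass. The sums of 1760 and 1731 CPM belonged to WT+ZnO NPs replicate 1 and KO+ZnO NPs replicate 3, the libraries with the highest *Elovl4*, *Cyp4f39*, *Fa2h*, *Cers4* and *Elovl3*. None of these markers was at 0 in a group, and their part in the rise of *Elovl4* was not tested. Markers of growing hair follicles summed to 1.79 to 6.37 CPM in WT but to 992 to 4464 CPM in the WT+ZnO NPs-labelled libraries, 14.0 to 7403 CPM in KO and 201 to 5694 CPM in KO+ZnO NPs. All 9 of them were higher in the WT+ZnO NPs-labelled libraries than in WT, so these follicle markers and the treatment cannot be told apart there. In KO against WT 8 of the 9 were called higher, with a median log2 fold change of 8.96. The KO sums were 7403, 14.0 and 2223 CPM in replicates 1, 2 and 3, so replicate 2 stood far below its partners. The follicle markers' part in the pathway genes that rose in KO, and in the calls lost without KO replicate 2, was not tested. Immune cell markers summed to 2774 to 3486 CPM in WT, 357 to 729 CPM in the WT+ZnO NPs-labelled libraries, 2252 to 3744 CPM in KO and 742 to 1182 CPM in KO+ZnO NPs. Those of basal keratinocytes, the layer in which Cre is active, were at 4540 to 6277, 6746 to 11351, 6908 to 11096 and 10539 to 12706 CPM in the same order of groups. Among the other lists, 4 of 7 adipocyte markers (median log2 fold change -2.47) and 3 of 3 endothelial markers (-1.64) were lower and 5 of 5 melanocyte markers (5.55) higher in the WT+ZnO NPs-labelled libraries than in WT, where of 6 fibroblast markers 1 was higher and 2 were lower (-0.43). In KO+ZnO NPs against KO, 2 of the 7 skeletal muscle markers tested were higher (median 2.0) and 1 of 6 fibroblast markers was lower (-0.72). The part of these cell types in the results was not tested either.

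**Figure D4:**
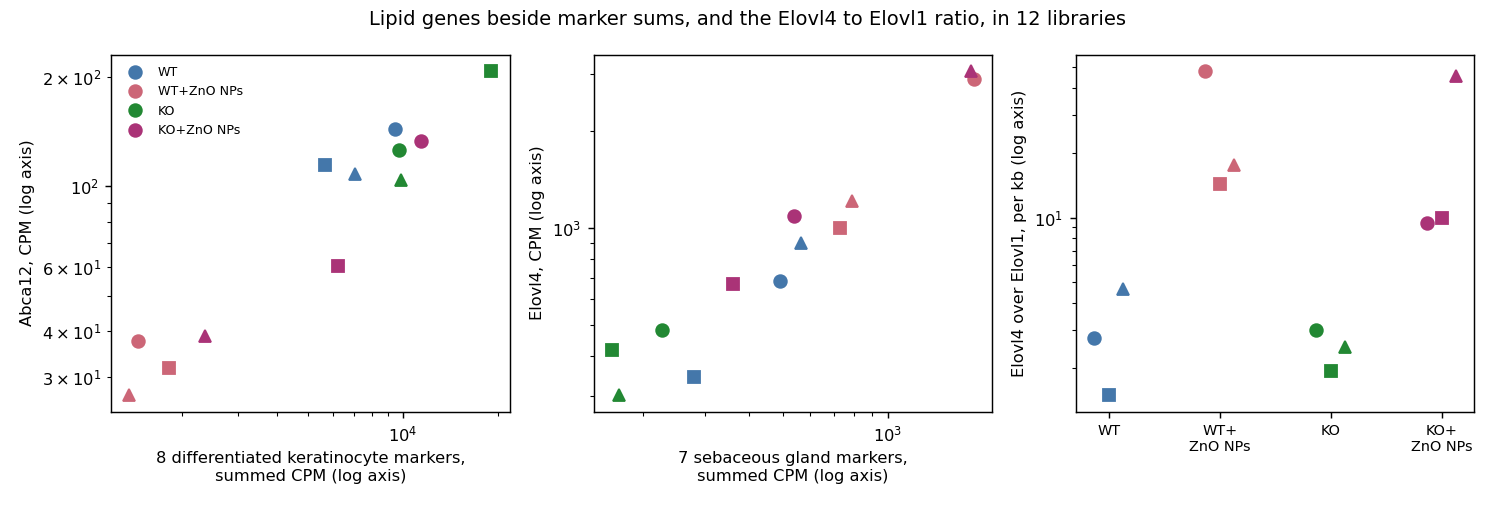
*Abca12* against the summed level of 8 differentiated keratinocyte markers (left), *Elovl4* against the summed level of 7 sebaceous gland markers (middle) and the *Elovl4* to *Elovl1* ratio per kb by group (right), in CPM on log axes except the unitless ratio, whose axis is also a log axis. Colours give the group and circles, squares and triangles replicates 1, 2 and 3. The 3 WT+ZnO NPs-labelled libraries sit at the lower left of the first panel, WT+ZnO NPs replicate 1 and KO+ZnO NPs replicate 3 at the upper right of the second, and the ratio is at most 4.66 in the vehicle libraries and at least 9.49 in the others.

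The genes most like the set in pattern were sought among the 11264 genes whose mean reached 10 CPM, by Pearson's r of log2(CPM + 1) over the 12 libraries, which share group and cell makeup, so r is a description. The mean of the 9 genes was followed most closely by *Ceacam19* (r = 0.98), *Rab11fip1* (0.98), *Lipk* (0.97), *Tex264* (0.97) and *Klk11* (0.97). For single genes the nearest were *Pla2g2f* for *Abca12* (0.99), *Stam2* for *Alox12b* (0.97), *Lce1l* for *Aloxe3* (0.97), *Endou* for *Cers3* (0.98), *Rnf39* for *Pnpla1* (0.98), *Adcy3* for *Ugcg* (0.98), *Dnm2* for *Elovl1* (0.99), *Pank1* for *Elovl4* (0.98) and *Selenoi* for *Cyp4f39* (0.94). Within the set, the deviations of the libraries from their group means gave r = 0.92 for *Abca12* with *Alox12b*, 0.95 for *Abca12* with *Pnpla1* and 0.89 for *Elovl4* with *Cyp4f39*, against -0.17 for *Abca12* with *Elovl4*. *Aloxe3* varied with genes of both kinds, at 0.59 with *Alox12b*, 0.60 with *Cyp4f39*, 0.39 with *Elovl4* and 0.0066 with *Cers3*.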

How the data were processed

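RNA-seq was made from skin of 12 mice. The submitters' processing notes name HISAT2 2.0.5 and the mouse build mm10, whereas the study's methods name STAR and HTSeq, and the release of the annotation and whether strand was used are not given in the sources used here. Labels and methods also differ in the library kit named. The authors deposited unnormalized whole-number counts per gene and library. Of 52636 identifiers, 52403 matched GENCODE release M21 on GRCm38, and 0 columns and 0 entries that name no gene were left out.

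The quasi-likelihood test of edgeR 4.0.16 in R 4.3.3 was fitted to all 12 libraries with TMM factors, edgeR's filter on low counts and one coefficient per group, with Benjamini-Hochberg adjustment over 18822 genes. Standard errors (SE) were derived from each log2 fold change and its F statistic, approximately, and intervals use that test's degrees of freedom. CPM per kb divides by the length of a gene's merged exons. The labels do not say more of the replicates than their number, so p-values measure the spread between these samples. Replicates differed by more than sampling noise (chi-square between 40.75 and 178 for each degree of freedom), and 12 separate samples were kept. Deviations from the group means of same-numbered KO and KO+ZnO NPs libraries correlated at 0.39, 0.13 and 0.14 for replicates 1, 2 and 3. Same-numbered libraries of other group pairs reached 0.17, and both libraries of replicate 1 carry Y-linked transcripts. These values therefore do not settle whether the numbers mark pairs. The main fit does not pair samples, and the fit with the replicate block is given beside each call on the 9 genes that it changed. The steps were tested on simulated data.

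The members, the lists and the rule for named genes (all 9 genes, the 3 called pathway genes with the largest rise and fall in each comparison at a mean of at least 1 CPM, and the genes most similar in pattern) were chosen with earlier results of these data known. Exceptions were the *Elovl4* to *Elovl1* ratio, *Smpd1*, *Slc27a4*, *Abhd5* and *Cers5*, chosen after their values were seen. Alternatives were RLE factors, library size only, scaling to keratins, DESeq2 1.42.0, other filters, only the groups compared, the replicate block, a Y-linked covariate, only libraries without Y-linked transcripts, and leaving out each library, plus the block on only the KO and KO+ZnO NPs libraries, added after the data had been seen.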

Additional observations from a re-analysis of the deposited data

Results flagged for a closer look

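The interaction test of edgeR called 0 of the 9 genes, with *Elovl1* at an unadjusted p below 0.05. Among the other genes of the pathway lists, 6 that the naming rule picked were called. The *Cdc42* transcript of the WT+ZnO NPs-labelled libraries goes against their label, so these values compare libraries by label. *Tfap2a* (interaction of -2.02 on the log2 scale), *Scd2* (-2.01) and *Vdr* (-1.84) had lower log2 fold changes in KO+ZnO NPs against KO than in the WT+ZnO NPs-labelled libraries against WT, and *Scd2* was at 225, 260.0 and 166 CPM in KO+ZnO NPs and 277, 320.5 and 344 CPM in KO. *Acer2* (2.16), *Nr1h3* (1.86) and *Asah1* (1.08) differed in the other direction. *Acer2* was lower in the WT+ZnO NPs-labelled libraries, at 25.4, 37.6 and 17.4 CPM, than in WT, at 50.2, 45.0 and 48.8 CPM, and higher in KO+ZnO NPs, at 76.5, 87.8 and 58.2 CPM, than in KO, at 40.3, 21.7 and 27.2 CPM. The 3 WT+ZnO NPs-labelled libraries carry Y-linked transcripts and the WT libraries do not, which cannot be told apart from the treatment in these values. When a covariate for Y-linked transcripts was added, 3 of the 92 pathway genes were called for the interaction, in place of 11, and the share of all genes called fell from 8.68% to 0.744%. Leaving out any single WT library ended the interaction calls of *Vdr*, *Nr1h3* and *Asah1*, which held in 8, 9 and 5 of 21 alternatives, while those of *Tfap2a*, *Scd2* and *Acer2* held in 21, 20 and 20.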

How the results depend on the processing

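Across all alternatives, *Abca12*, *Alox12b* and *Elovl1* stayed lower and called between the WT+ZnO NPs-labelled libraries and WT in 22 of 22, *Ugcg* in 21 and *Cers3* in 8. In KO+ZnO NPs against KO, *Elovl1* and *Ugcg* were called in 18 of 24 and *Elovl4* in 9. Keratin scaling gave 3 of the 9 genes called for KO against WT, 1 for KO+ZnO NPs against KO, and 35, 12, 26 and 1 pathway genes for KO against WT, KO+ZnO NPs against KO, KO+ZnO NPs against WT+ZnO NPs and the interaction, in place of 7, 21, 5 and 11. The shares of all genes called were then 36.1%, 2.26%, 29% and 1.49%, in place of 8.18%, 14.7%, 3.28% and 8.68%. In WT+ZnO NPs against WT it called 3 of the 9 lower and 1 higher, beside 22.9% of all genes in place of 43%, with *Cers3* (adjusted p = 0.0761) and *Ugcg* (0.0736) losing their calls and *Elovl4* passing at 1.55 (0.0497). It turned KO against WT to -0.73 for *Abca12*, -0.92 for *Aloxe3*, -0.44 for *Cers3*, -0.25 for *Pnpla1*, -0.78 for *Cyp4f39* and -0.42 for *Ugcg*, and KO+ZnO NPs against WT+ZnO NPs to -0.55 for *Aloxe3*, -0.67 for *Elovl1*, -0.20 for *Pnpla1* and -0.63 for *Ugcg*, all with the shift of the median of all genes, by -0.90 and -0.93. That shift was 0.23 in WT+ZnO NPs against WT and 0.19 in KO+ZnO NPs against KO. On only the groups compared, DESeq2 called 1 and 9 of the 9 genes in KO and in WT+ZnO NPs against WT, and 19 pathway genes for KO against WT and 8 between the ZnO NP groups, beside 25.6%, 51.3% and 5.06% of all genes for KO and WT+ZnO NPs against WT and the ZnO NP groups. edgeR on only the groups compared called 9 of the 9 in WT+ZnO NPs against WT and 0 in KO+ZnO NPs against KO, and 12, 1 and 0 pathway genes for KO against WT, KO+ZnO NPs against KO and the ZnO NP groups, beside 15.9%, 3.24% and 0% of all genes, and 49% for WT+ZnO NPs against WT. DESeq2 on all libraries called 1 of the 9 and 15 pathway genes between the ZnO NP groups (13% of all genes), where RLE factors gave 3 (2.62%), no filter 2 (0.854%) and the Y-linked covariate 0 (0.00531%) pathway genes. Libraries without Y-linked transcripts gave 2 pathway genes for KO against WT (3.74% of all genes), and the covariate gave 3 for the interaction (0.744%), -0.20 for *Aloxe3* in KO against WT and 0.079 for *Ugcg* in the interaction. For the named pathway genes, 421 values under alternatives kept their direction and side of the threshold, 137 kept the direction and lost the call, and 1 was reversed, *Sptssa* between the ZnO NP groups at -0.057 under keratin scaling. The calls of *Fa2h*, *Cers4*, *Elovl3* and *Asah1* in KO+ZnO NPs against KO held in 20 of 24 and that of *Psap* in 19, each lost without KO replicate 2. Library size alone turned the interaction of *Pnpla1* to -0.027.

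The replicate block turned the interaction of *Pnpla1* to -0.057 and, on only the KO and KO+ZnO NPs libraries, called 0 of the 9 genes, 0 pathway genes and 0 of all genes. Same-numbered libraries of group pairs other than KO with KO+ZnO NPs correlated at -0.39 to 0.17. In WT+ZnO NPs against WT, *Cers3* was -1.46 with the block (adjusted p = 0.0642). Of the calls on the 9 genes, the block on all 12 libraries changed no other than this and *Elovl4*.

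Leaving out 1 library each time, the genes called ranged from 0 to 6 of the 9 in KO+ZnO NPs against KO and from 0 to 2 between the ZnO NP groups, and pathway genes from 1 to 10 in KO against WT, 1 to 31 in KO+ZnO NPs against KO, 0 to 18 between the ZnO NP groups and 3 to 18 for the interaction, while the share of all genes called ran from 1.94% to 10.6%, 2.34% to 16.4%, 0.00517% to 8.26% and 2.38% to 8.45% in the same 4. KO against WT ran from -0.075 to 0.45 for *Abca12* and -0.23 to 0.44 for *Aloxe3*. Between the ZnO NP groups it was -0.29 to 0.81 for *Aloxe3*, -0.96 to 0.54 for *Elovl4* and -0.80 to 0.24 for *Cyp4f39*. Interactions ran from -0.31 to 0.78 for *Aloxe3*, -0.29 to 1.23 for *Elovl4*, -0.62 to 0.42 for *Pnpla1*, -0.96 to 0.089 for *Cyp4f39* and -0.37 to 0.28 for *Ugcg*. Where the cause of a change is not in the alternative's construction, it was not tested. The lowest count of the 9 genes in a library was 76, and what limited the calls was not tested.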
